A study of Saccharomyces cerevisiae with 93 samples.

Results

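Budding yeast with 1 copy of human alpha-synuclein were set directly against yeast with 2 copies after 2 h of induction, on 3 of the 93 dual-colour arrays of a series about rescue from alpha-synuclein toxicity. The members are the 3 arrays whose labels name this pair of strains and this time. Each array carried RNA of 1-copy cells in Cy5 and RNA of 2-copy cells in Cy3, and gave a log2 ratio for 6377 probes. A positive log2 ratio stands for more RNA in 1-copy cells and a negative one for more in 2-copy cells. Per the labels, cultures were brought to a starting optical density of 0.3 in galactose medium, 50 ml were harvested at each time, and total RNA was extracted with hot phenol and chloroform. The 3 arrays carried 3 pairs of biological replicates and ran in the same dye orientation, without a dye swap.

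The further groups, each of 3 arrays, are used for comparison: the same pair of strains at 0, 4 and 6 h, and 1-copy or 2-copy cells against cells with an empty vector at 2 h. Per the series' design text, the 3 RNA samples of a time were hybridised in all 3 pairings, so that arrays of different pairings at 2 h share RNA. For the time course strains, the sources used here give no genotype. The label of 1 array with a compound describes a strain with 2 copies. Its background is W303 of mating type a, with mutant alleles of CAN1, HIS3, LEU2, TRP1, URA3 and ADE2 and deletions of the drug efflux regulators PDR1 and PDR3, each by kanMX. The alpha-synuclein genes in it were fused to green fluorescent protein, driven by a galactose promoter and carried on the plasmids pRS304GAL and pRS306GAL. No probe measured alpha-synuclein itself, so the difference in dose could not be read on these arrays.

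Alpha-synuclein is a small membrane-binding protein that aggregates in Parkinson's disease, and in yeast its overproduction is known to block vesicle traffic between the endoplasmic reticulum (ER) and the Golgi apparatus. Yeast answer misfolded protein in the ER with the unfolded protein response, in which the sensor Ire1 splices the RNA of the transcription factor Hac1 and chaperones, oxidoreductases and degradation factors are induced. Damage to the wall is relayed by the kinase Slt2 to the factor Rlm1, and low phosphate acts through the factor Pho4.

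At 2 h, 622 of 6377 probes (9.75%) differed between the strains at an adjusted p under 0.05 (limma, moderated two-sided test, Benjamini-Hochberg over all probes). Of these, 257 (4.03%) were higher and 365 (5.72%) lower in 1-copy cells. The called differences had a median size of 0.51 on the log2 scale, which is 1.42-fold, and the median ratio of all probes was -0.0035. Larger differences lay mostly on the side of the 2-copy cells: at 2-fold or more, 67 probes (1.05%) were called, 61 of them lower and 6 higher in 1-copy cells. All 3 arrays had 1 sign for 598 of the 622 called probes. Ratios were wider on array 1 (SD over probes 0.398) than on arrays 2 and 3 (0.328 and 0.322), and array 1 had the largest size of the 3 for 369 of the called probes. The number of calls was 202 without array 1, 323 without array 2, 327 without array 3 and 204 with a dye term in the fit.

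**Figure D1:**
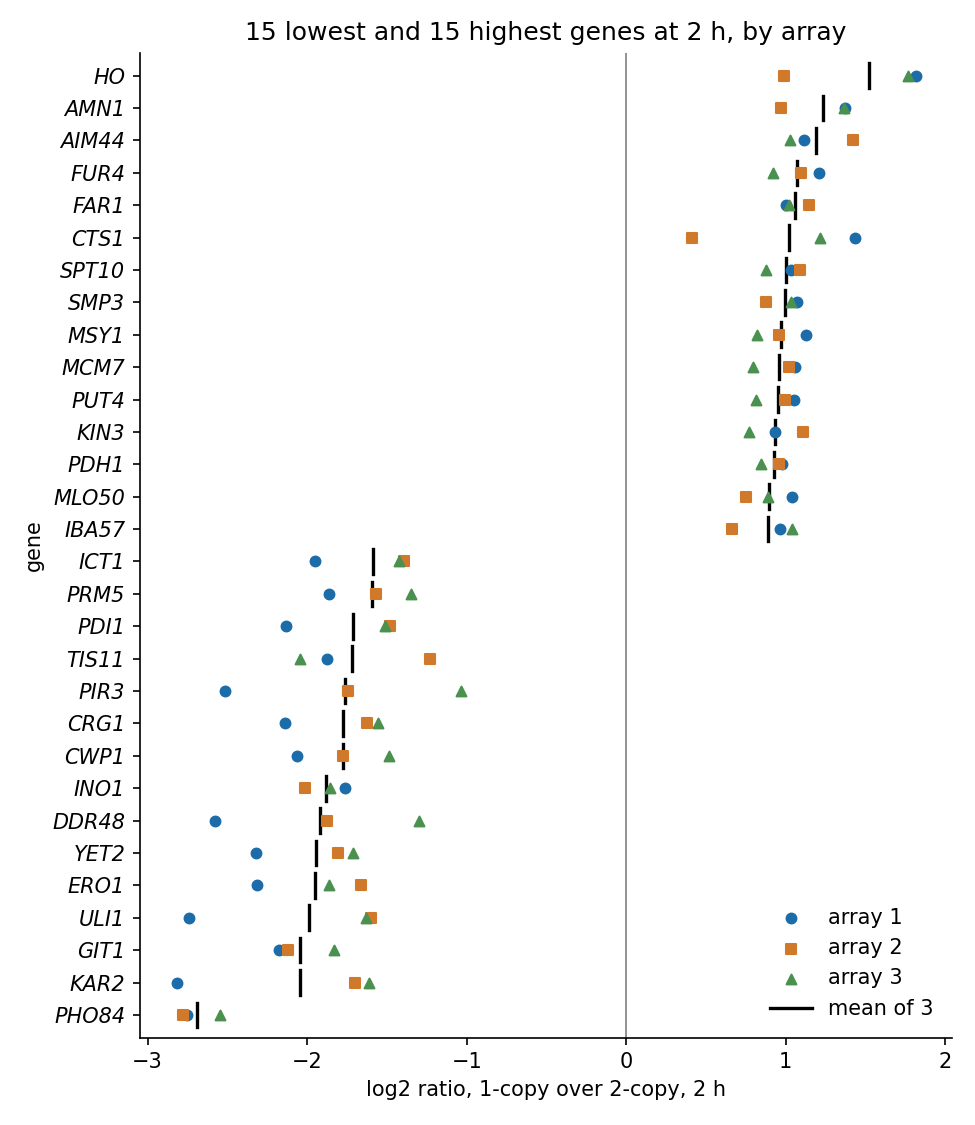
Log2 ratio of 1-copy over 2-copy cells at 2 h (x axis) for the 15 lowest and 15 highest named genes (y axis), with 1 symbol per array and a black tick at the mean of the 3 arrays. The 15 lowest genes have means from -2.69 to -1.59 and the 15 highest from 0.89 to 1.52. All were chosen with 1 sign on the 3 arrays, so no gene has an array on the other side of 0.

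The endoplasmic reticulum held the most marked group of genes with more RNA in 2-copy cells. KAR2, the ER Hsp70 chaperone also called BiP, read -2.82, -1.70 and -1.61 on the 3 arrays, so it was 4.13-fold lower in 1-copy cells (mean log2 ratio -2.04 ± 0.67, SD, n = 3, adjusted p = 0.000754). Without array 1 its mean was -1.66 and did not pass. Array 1 stood below the other two, as it did for most genes of this group. ERO1, the oxidase that supplies disulfide bonds in the ER, read -2.32, -1.66 and -1.86 (-1.95 ± 0.33, 3.86-fold lower, adjusted p = 0.00035). PDI1, the protein disulfide isomerase that Ero1 oxidises, read -2.13, -1.48 and -1.51 (-1.71 ± 0.37, adjusted p = 2.85e-06). YET2, a relative of the mammalian ER membrane protein BAP31, read -2.32, -1.81 and -1.71 (-1.95 ± 0.33, adjusted p = 4.03e-08). ULI1, a gene named for its induction by the unfolded protein response, had the weakest test of these: its arrays read -2.74, -1.60 and -1.63 (-1.99 ± 0.65, adjusted p = 0.0229), and it did not pass with a dye term or without any 1 of the arrays.

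Of 21 measured genes of ER chaperones and the unfolded protein response, 12 were lower in 1-copy cells and 0 were higher, against 5.72% of all probes lower. Their median log2 ratio was -0.64. The other members past the threshold were partners of Kar2 and thiol enzymes: the J protein JEM1 (-1.27, -0.89 and -0.84), the oxidoreductase MPD1 (-1.03 ± 0.16), the nucleotide exchange factors LHS1 (-0.94 ± 0.24) and SIL1 (-0.99 ± 0.86), the J protein SCJ1 (-0.56 ± 0.15), the chaperone ROT1 (-0.46 ± 0.07) and the oxidoreductase EPS1 (-0.29 ± 0.05). SIL1 was not even across the arrays, at 0.00, -1.45 and -1.53. The 2-copy RNA of the same replicate numbers read -0.04, 1.65 and 1.34 for SIL1 against vector, so that number 1 was near 0 on both arrays. The regulators themselves did not pass: IRE1 read -0.02, 0.06 and 0.28, and HAC1, whose RNA is controlled by splicing that these ratios do not resolve, read -0.86, -0.02 and -1.26 (adjusted p = 0.244). EUG1, a relative of PDI1, was split in the same way, at -1.40, 0.27 and -0.80. The count of 12 fell to 5 without array 1 and to 6 with a dye term.

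Other steps of the secretory pathway had fewer members past the threshold. Of all probes, 5.72% were lower. Among 18 genes of ER-associated degradation, 1 was lower: DER1, a membrane factor of the export channel, at -1.34, -0.96 and -0.87 (-1.06 ± 0.25, adjusted p = 1.75e-05). Translocation and glycosylation had 5 of 38 genes lower, all by less than 2-fold. These were SEC61 (-0.64) and SBH1 (-0.39) of the translocation channel, the O-mannosyltransferases PMT2 (-0.61) and PMT1 (-0.57) and the oligosaccharyltransferase subunit WBP1 (-0.32). Transport between ER and Golgi had 8 of 48 lower and 1 higher, with SEC13 (-0.71) and SEC24 (-0.48) of the COPII coat, its scaffold SEC16 (-0.51), and SLY1 (-0.52) and BOS1 (-0.44) of vesicle fusion among the lower ones. The medians of these 3 lists were -0.14, -0.10 and -0.09. Without array 1, 2 or 3, the lower members were 2, 3 and 2 in translocation and glycosylation and 2, 3 and 2 in transport. Of 25 cytosolic heat shock genes, 18 had a mean below 0, and the median was -0.14. HSP26 (-1.385), HSP12 (-1.219) and HSP42 (-0.943) were the furthest below 0 and did not pass. In this list, 0 were called lower and 1 higher. The higher one was the Hsp70 gene SSA1, and 1 array made most of its mean: it read 0.39, 0.45 and 1.76. Its sequence is close to that of SSA2 (0.62, 0.18 and 0.45), and cross-hybridisation between the 2 was not tested. Of 34 proteasome genes, 2 were lower, PRE2 (-0.45) and PRE7 (-0.38), a share near that of all probes. The median was -0.22, and 30 of the 34 means were below 0. The count of 2 became 16 with array weights and 0, 1 and 1 without array 1, 2 or 3.

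Phosphate uptake showed the largest single difference. PHO84, the high-affinity phosphate transporter of the plasma membrane, read -2.75, -2.78 and -2.55, which is 6.46-fold less RNA in 1-copy cells (-2.69 ± 0.13, adjusted p = 1.07e-05). GIT1, the permease for glycerophosphoinositol, read -2.17, -2.12 and -1.83 (-2.04 ± 0.19, adjusted p = 2.77e-06). SPL2, a small protein that holds back low-affinity phosphate transport, read -1.66, -1.69 and -1.30 (-1.55 ± 0.22, adjusted p = 0.00354). The 3 arrays lay close together for PHO84 and GIT1. VTC3, a subunit of the complex that makes polyphosphate at the vacuole, read -1.49, -1.46 and -1.22 (-1.39 ± 0.15, adjusted p = 7.21e-06). GDE1, which cleaves glycerophosphocholine, read -0.94, -0.75 and -0.75 (-0.81 ± 0.11, adjusted p = 1.33e-06).

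These 5 were the members past the threshold among 24 phosphate genes, with 5.72% of all probes lower, and 0 members were higher. The list's median was -0.10, so most of the regulon stayed near 0. PHO5, the secreted acid phosphatase and classic target of Pho4, read 0.29, 0.60 and -0.23, and its neighbours in function PHO11 and PHO12 read 0.25 and 0.17 on average. The second high-affinity transporter PHO89 had -0.42 ± 0.19 (adjusted p = 0.528). The polyphosphate subunit VTC4 read -0.92, -0.04 and -0.76 (adjusted p = 0.103), and VTC1 read 0.25, 0.13 and 0.15. Among the regulators, the means were -0.02 for PHO4, -0.13 for the inhibitor PHO81, -0.07 for the cyclin PHO80 and 0.04 for the kinase PHO85, none past the threshold. The count was 4 without array 1 and 5 without either of the others.

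In the inositol and phospholipid list, 1 gene stood well apart. INO1, the synthase that makes inositol phosphate from glucose 6-phosphate and the classic target of Ino2, Ino4 and Opi1, read -1.77, -2.01 and -1.86 (-1.88 ± 0.13, 3.68-fold lower in 1-copy cells, adjusted p = 3.89e-06). Of 22 genes of inositol and phospholipid synthesis, 2 were lower and 0 higher, against 5.72% of all probes lower, and the count was 1 with a dye term and 1 without array 1 or array 2. The second was the ethanolamine phosphotransferase EPT1 (-0.49 ± 0.12). Other targets of the same regulators did not pass, with OPI3 at -0.51, -0.66 and 0.28, CHO2 at -0.33, -0.61 and 0.36, ITR1 at -0.27 on average and CHO1 at 0.25. The regulators INO2 (-0.19), INO4 (0.19) and OPI1 (-0.03) did not pass either. The list's median was -0.07.

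Cell wall genes were the third group that was lower in 1-copy cells. CWP1, a mannoprotein of the wall, read -2.06, -1.77 and -1.49 (-1.77 ± 0.29, 3.42-fold lower, adjusted p = 3.03e-07). PIR3, another wall protein, read -2.51, -1.74 and -1.04 (-1.76 ± 0.74, adjusted p = 4.02e-05). CRG1, a methyltransferase that acts on lipid homeostasis and is not a wall protein, read -2.14, -1.63 and -1.56 (-1.77 ± 0.32, adjusted p = 1.66e-11). GSC2, a catalytic subunit of glucan synthase, read -1.56, -1.12 and -0.83 (adjusted p = 0.0134). The factor RLM1 itself was lower on every array, at -1.09, -0.88 and -0.80 (-0.92 ± 0.15, adjusted p = 1.72e-06). PRM5, a membrane protein of pheromone-treated cells, also read -1.87, -1.57 and -1.35 (adjusted p = 7.21e-06).

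Of 25 targets of the cell wall integrity pathway, 10 were lower and 0 higher, against 5.72% of all probes lower, and the median was -0.60. Array 3 differed from the others for a pair of these: the protease gene YPS1 read -2.04, -1.55 and 0.22 (adjusted p = 0.0191), and the kinase gene SLT2 read -1.51, -1.20 and -0.03 (adjusted p = 0.00823). PIR1, in the same protein family as PIR3, read 0.88, 0.92 and -0.25 and did not pass (adjusted p = 0.167). The count fell to 4 without array 1 and to 4 without array 2. In general stress genes, 2 of 31 were lower, a share near the 5.72% of all probes: DDR48 (-2.58, -1.88 and -1.30) and the glycerol phosphate dehydrogenase GPD1 (-1.79, -1.07 and -0.97). The median of that list was -0.39, and 24 of its 31 means were below 0. Its count of 2 became 14 with array weights and 1 without array 1 or array 2. The open reading frame YMR173W-A overlaps DDR48, and its probe, printed as YMR173WA in the deposited values, had a mean of -1.17, so the 2 signals may not be separate.

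**Figure D2:**
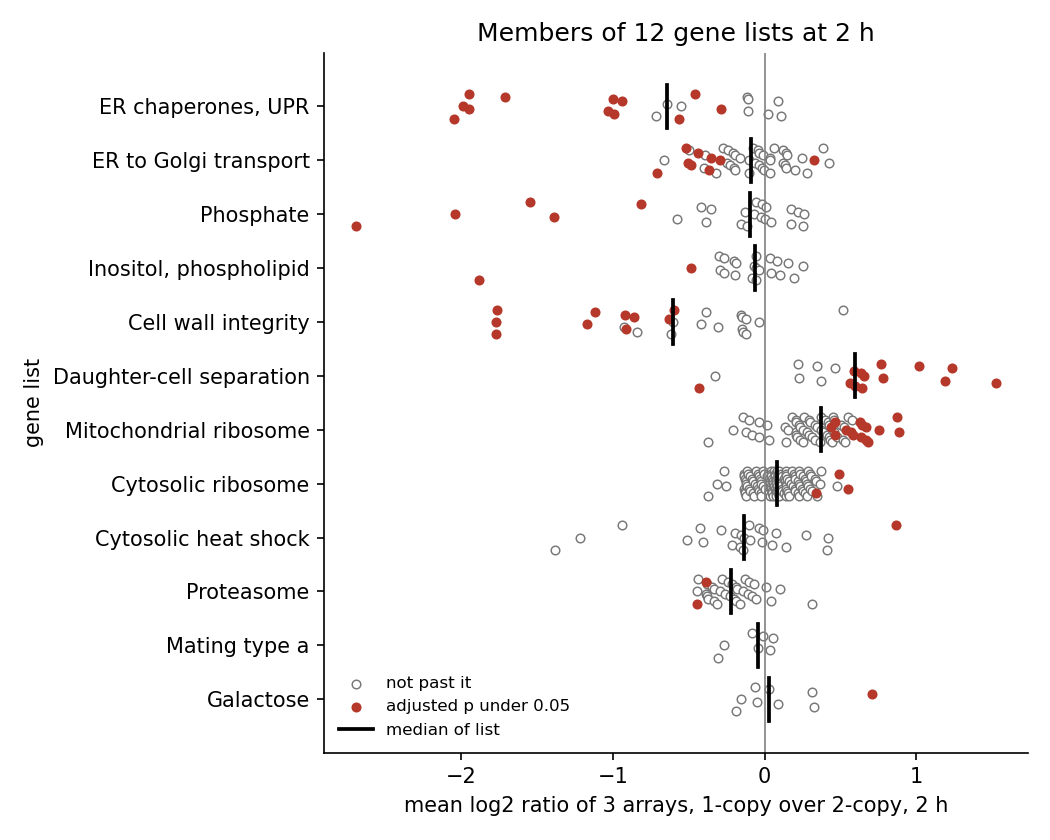
Mean log2 ratio of 1-copy over 2-copy cells at 2 h (x axis) for every measured member of 12 gene lists (y axis), with red points past an adjusted p of 0.05, open points not past it, and a black line at the list's median. Medians range from -0.64 in ER chaperones and -0.60 in cell wall targets to 0.37 in mitochondrial ribosomal proteins and 0.59 in daughter-cell genes.

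Among the genes higher in 1-copy cells were those of mitotic exit and daughter-cell separation. HO, the endonuclease of mating type switching, read 1.81, 0.99 and 1.77 (1.52 ± 0.46, 2.87-fold higher, adjusted p = 3.03e-06). AMN1, which opposes mitotic exit and is made in daughter cells, read 1.37, 0.97 and 1.37 (1.24 ± 0.23, adjusted p = 4.73e-09). AIM44, a protein of the bud neck, read 1.11, 1.42 and 1.02 (1.19 ± 0.21, adjusted p = 1.82e-06). CTS1, the chitinase that splits mother from daughter, read 1.43, 0.41 and 1.22 (1.02 ± 0.54, adjusted p = 1.57e-05). Array 2 was the lowest for HO, AMN1 and CTS1 and the highest for AIM44.

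Of 19 genes of the daughter-cell separation list, 12 were higher and 1 lower, against 4.03% and 5.72% of all probes, and the median was 0.59. Besides those named, the higher ones were DSE2 (0.78 ± 0.41), the glucanase SCW11 (0.77 ± 0.20), the HO repressor ASH1 (0.65 ± 0.24), DSE3 (0.64 ± 0.15), DSE1 (0.64 ± 0.39), the factor SWI5 (0.59 ± 0.15), the cyclin-dependent kinase inhibitor SIC1 (0.59 ± 0.10) and the cyclin PCL9 (0.56 ± 0.15). PCL2, a further cyclin of Pho85, was lower (-0.43 ± 0.11). EGT2 had -0.32 ± 0.11 and did not pass the threshold, and DSE4 read 1.13, 0.02 and -0.03. Over vector, EGT2 had means of -0.16 in 1-copy and -0.92 in 2-copy cells. The ratio inferred from them was 0.76, opposite in sign to the direct one. In these bulk cultures, more cells in a stage of the cycle and more RNA per cell cannot be told apart. The count was 7 without array 1.

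Cyclins and their regulators had 2 of 16 higher and 0 lower, where 4.03% of all probes were higher and 5.72% lower. FAR1, the inhibitor that arrests cells in G1, read 1.00, 1.15 and 1.02 (1.05 ± 0.08, adjusted p = 0.000153). CDC20, the activator of the anaphase-promoting complex, read 0.75, 0.83 and 0.46 (0.68 ± 0.19, adjusted p = 0.000115). The G1 cyclins CLN1 (-0.44) and CLN2 (-0.29) and the mitotic cyclin CLB2 (0.32) did not pass. Nor did the cyclin PCL1, whose mean of -1.04 was the lowest of the list. Also higher were MCM7, a subunit of the replicative helicase (1.06, 1.02 and 0.79, adjusted p = 1.12e-10), and the mitotic kinase KIN3 (0.93, 1.11 and 0.77, adjusted p = 2.06e-06). Histone genes had 0 of 10 higher and 1 lower, the linker histone HHO1 (-0.44 ± 0.08).

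Genes of mitochondrial translation were also on this side, with smaller differences. Of 70 mitochondrial ribosomal proteins, 15 were higher and 0 lower, against 4.03% of all probes higher, 62 had a mean above 0, and the median was 0.37. The most distant from 0 were MRPL24 at 0.94, 0.89 and 0.82 (0.89 ± 0.06, adjusted p = 0.00126) and MRPL19 at 1.03, 0.76 and 0.83 (0.87 ± 0.14, adjusted p = 0.0031). MSY1, the mitochondrial tyrosyl-tRNA synthetase, read 1.13, 0.96 and 0.82 (adjusted p = 0.000322), and IBA57, an iron-sulfur cluster assembly factor, read 0.96, 0.66 and 1.04 (adjusted p = 0.000322). The respiratory chain and ATP synthase had 2 of 40 higher, cytochrome c, CYC1 (0.87 ± 0.21), and the ATP synthase subunit TIM11 (0.42 ± 0.21). That share was near the 4.03% of all probes, and the count was 0 with a dye term and 0, 0 and 1 without array 1, 2 or 3. Cytosolic ribosomal proteins had 3 of 138 higher, 0 lower and a median of 0.08. The count of 15 was 1 with a dye term, 45 with array weights, and 2, 6 and 7 without array 1, 2 or 3.

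A pair of permeases was also among the 15 highest. FUR4, the uracil permease, read 1.21, 1.09 and 0.92 (1.07 ± 0.15, adjusted p = 0.00674). PUT4, the proline permease, read 1.05, 0.99 and 0.81 (0.95 ± 0.13, adjusted p = 0.00612). PUT4 had 0.76 ± 0.36 already at 0 h, without passing the test there (adjusted p = 0.0682). The list of nitrogen and proline use, to which PUT4 belongs, had 1 of 21 higher and a median of -0.13. FUR4 and PUT4 lost the call with a dye term and without array 1 or array 2.

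Genes that could tell the strains or cultures apart were mostly even. Of 7 genes specific to mating type a and 4 specific to alpha, 0 and 0 were called, with means from -0.31 to 0.05 and from -0.05 to 0.33. The alpha list was uneven across the arrays, with medians of 0.84, -0.19 and 0.10. The medians of the a list were -0.03, -0.11 and -0.12. The galactokinase GAL1 read -0.09, 0.04 and 0.12 and the epimerase GAL10 read 0.01, 0.10 and 0.16. Of 9 galactose genes, 1 was called, the galactose permease GAL2, which read 0.93, 0.56 and 0.63 (adjusted p = 0.0207). That call was lost with a dye term and without any 1 of the arrays. TRP1, the marker that plasmids of the pRS304 type carry, read -1.55, -1.65 and -1.39, and it was the marker called among 6 (-1.53 ± 0.14, adjusted p = 3.6e-06). It already read -0.95, -1.25 and -1.17 before induction. Against vector at 2 h, TRP1 read 1.59, 1.46 and 1.63 in 2-copy cells and -0.02, -0.13 and 0.14 in 1-copy cells. URA3 read 0.02, -0.23 and 0.00 between the strains, but its means over vector at 2 h were -1.56 in 1-copy and -1.69 in 2-copy cells. Of the deleted regulators in the labelled strain, PDR1 had -0.13 ± 0.19 and PDR3 read 0.09, -0.77 and -0.69, which was called lower (mean -0.45, adjusted p = 0.0419). Over vector at 2 h, PDR3 had means of -0.006 in 1-copy and -0.24 in 2-copy cells. The ratio inferred from them was 0.24, opposite in sign to the direct one.

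The arrays against vector at 2 h set each strain beside the control. In 1-copy cells, 0 of the 15 lowest and 0 of the 15 highest genes were called, with means between -0.66 and 0.48 and between -0.28 and 0.36, where 4.77% of all probes were called (0.580% higher and 4.19% lower than vector). In 2-copy cells, 14 of the 15 lowest genes were called, with means between 0.55 and 2.68, and 7 of the 15 highest, with means between -1.34 and 0.06, where 9.97% of all probes were called (5.69% higher and 4.28% lower). These arrays share RNA with the direct ones and are not an independent repeat. PHO84, for example, read -0.27, 0.52 and -0.13 in 1-copy cells and 2.65, 2.98 and 2.41 in 2-copy cells. KAR2 read 0.01, 0.09 and 0.01 in 1-copy cells and 2.75, 1.65 and 1.67 in 2-copy cells. GIT1 was the exception among the lowest: against vector it read 1.64, 0.04 and -0.03 in 2-copy cells, while every direct array was at -1.83 or below. HO read 0.22, 0.26 and -0.31 in 1-copy cells and -1.25, -0.69 and -1.91 in 2-copy cells. The kinase gene KIN3 and IBA57, both among the highest, were close to vector in both strains, with means of 0.24 and 0.15 in 1-copy and 0.06 and -0.12 in 2-copy cells.

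**Figure D3:**
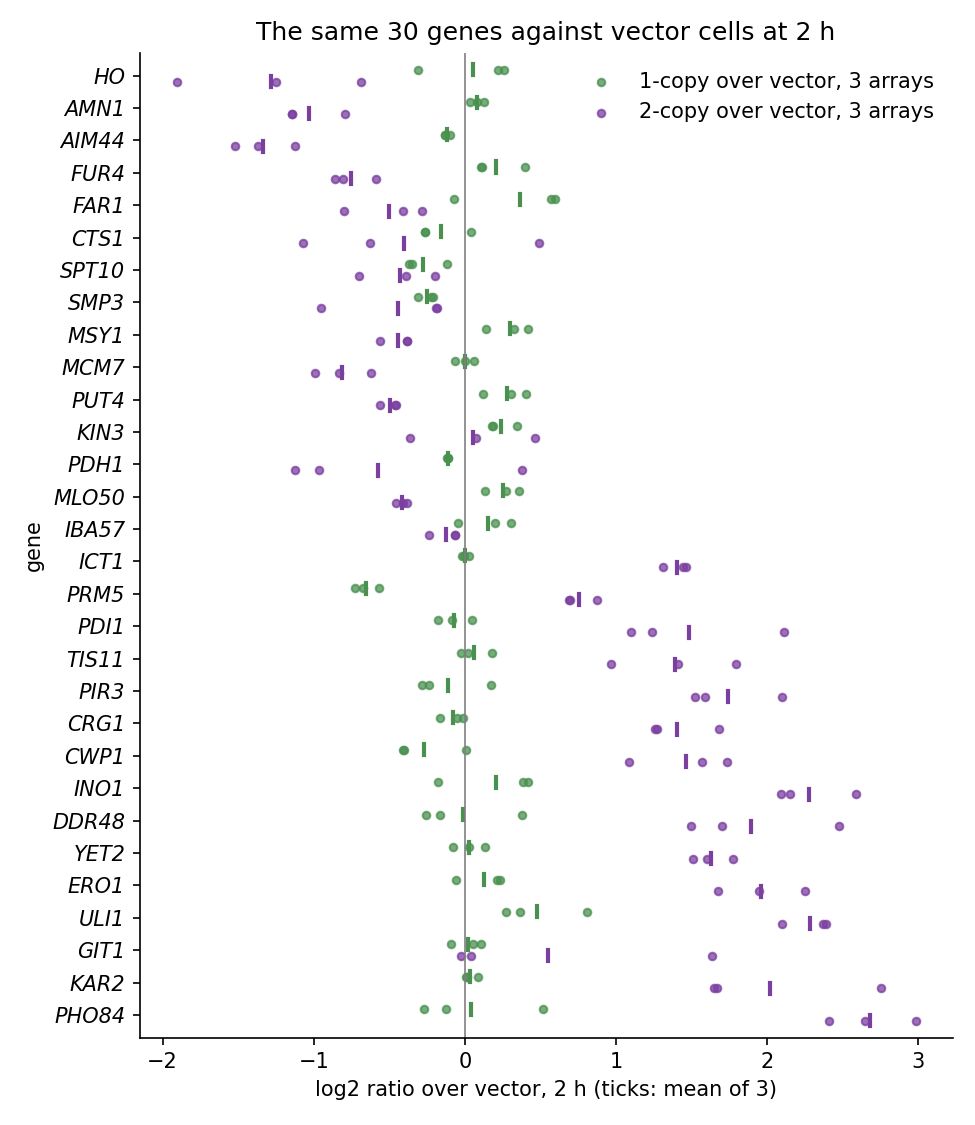
Log2 ratio over vector cells at 2 h (x axis) for the 30 named genes (y axis), with 3 points and a tick at their mean for 1-copy cells (green) and for 2-copy cells (purple). The green means lie between -0.66 and 0.48, while purple means reach 2.68 for PHO84 and -1.34 for AIM44.

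The difference between the direct ratio and the ratio inferred over vector measures how well the 3 pairings close. It passed the threshold for 4 probes (0.0627%), 1 of them upwards (0.0157%) and 3 downwards (0.0470%), with 187 at an unadjusted p under 0.05 in limma, and its median size over all probes was 0.12. The closure varied less within a replicate number (median SD 0.157) than unrelated numbers would give (0.261), and the fit across all arrays did not use the numbers, so 4 is not a full count of misclosure. Formed within each number, the difference passed for 0 probes, with few degrees of freedom, and 702 were at an unadjusted p under 0.05. The 4 called across all arrays were YPK9, TAF12, MEI4 and HXT8. YPK9, a vacuolar ATPase related to a human parkinsonism gene, read -1.39, -1.36 and -0.70 directly, but -0.06 and 0.07 on average in 1-copy and 2-copy cells over vector (difference -1.02 ± 0.20, SE, adjusted p = 0.0064). TAF12, a subunit of TFIID and SAGA, read 0.01, 0.05 and 0.07 directly and 0.05, 2.38 and 1.91 in 2-copy cells over vector. SPT10 and SMP3, both among the 15 highest, also closed poorly without passing: direct means of 1.00 and 0.99 stood against inferred values of 0.15 and 0.19 (adjusted p = 0.078 and 0.14). In the ER list, MPD1 had -1.03 directly and -0.20 inferred, and EPS1 had -0.29 and -0.06. GIT1 had the widest gap of the 30 named genes, at -2.04 directly and -0.53 inferred (difference -1.51 ± 0.55, SE, adjusted p = 0.945). The ratio inferred over vector was itself called for 39 probes (0.612%), 8 higher (0.125%) and 31 lower (0.486%). Of the 30 named genes it was called for 14, and KAR2, GIT1, ERO1, CTS1, SPT10 and SMP3 were among the 16 that did not pass. Genes whose inferred and direct values took opposite signs included SEC16 (0.19 inferred, -0.51 direct), DSE3 (-0.08 and 0.64) and EGT2 (0.76 and -0.32). Others were PDR3 (0.24 and -0.45), TSC10 (0.06 and -1.125), ADE4 (0.32 and -0.69), MEI4 (0.28 and -0.72) and HXT8 (0.17 and -0.79). This is not a full list.

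Few of the large differences were present before induction. At 0 h, 223 probes (3.50%) were called, 89 higher (1.40%) and 134 lower (2.10%). Of the 61 probes lower by 2-fold or more at 2 h, 3 were called lower at 0 h, and of the 6 higher, 0 were called higher. From 0 h to 2 h, 247 probes (3.87%) changed, 141 of them (2.21%) upwards and 106 (1.66%) downwards. The balance turned under other settings: it was 248 against 268 with arrays scaled, 25 against 67 on the arrays of these times alone, and 13 against 30 without replicate 3. PHO84 fell by 2.83 from arrays at 0.67, -0.29 and 0.04 at 0 h (SE 0.63, adjusted p = 0.00326), and INO1 fell by 2.21 from 0.50, 0.09 and 0.39 (SE 0.42, adjusted p = 0.000545). ERO1 fell by 2.20, GIT1 fell by 2.10 and PIR3 fell by 2.03. HO rose by 1.87 from -0.25, 0.01 and -0.81 (SE 0.33, adjusted p = 0.000244), AMN1 by 1.47 and AIM44 by 1.30. The genes with a change named here were chosen so that the arrays of the 2 times did not overlap.

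Array 3 at 0 h bore on the rises. CTR1, the copper transporter, read -0.81, -0.27 and -2.66 at 0 h, CYC1 read -0.14, 0.04 and -1.78, and MRPL24 read -0.10, 0.03 and -1.40. Their rises of 1.52, 1.50 and 1.38 became 0.96, 0.84 and 0.95 without replicate 3 at both times, and none of the 3 passed the threshold then. PHO84 and ERO1 (without replicate 1 or 3) and HO (without replicate 3) also lost the call on their change, each with its direction kept. That array had the widest ratios of the 3 at 0 h (SD 0.444), and without replicate 3 the number of changed probes was 43. HSP26, a small heat shock protein, fell by 2.32 from 1.23, 0.46 and 1.14 to -1.94, -1.63 and -0.59 (adjusted p = 0.0495). It had not passed against 0 at 2 h, and it lost the call without any 1 of the replicates.

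**Figure D4:**
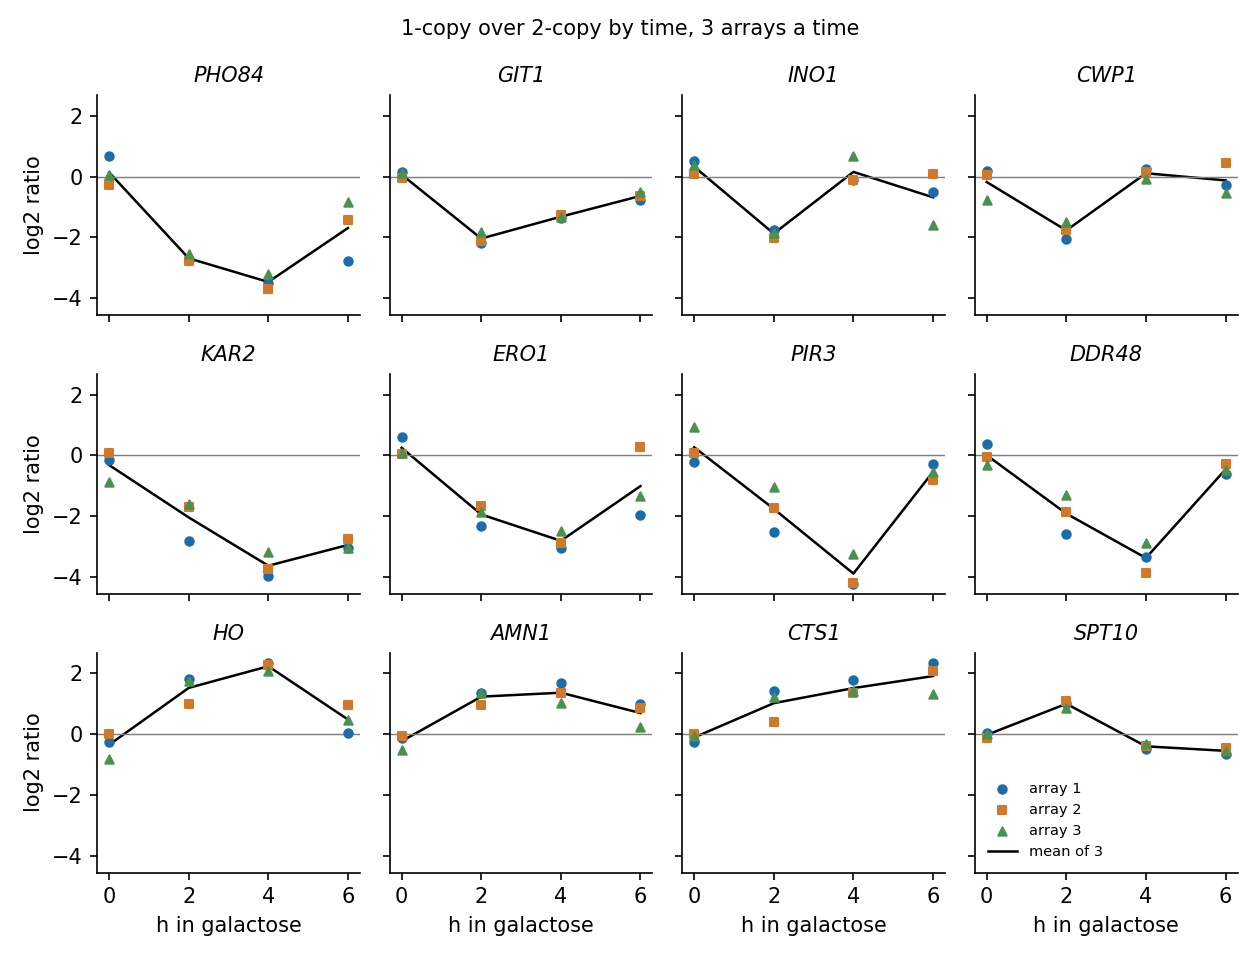
Log2 ratio of 1-copy over 2-copy cells (y axis) by hours in galactose (x axis) for 12 named genes, with 1 symbol per array and a line through the means of 3 arrays. Array numbers name replicates and were not used to link times. INO1 and CWP1 are near -1.8 at 2 h and near 0.1 at 4 h, while KAR2, PIR3 and DDR48 are lower at 4 h than at 2 h.

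At later times some of these genes moved back towards 0 and others did not. At 4 h, 2925 probes (45.9%) were called, 1408 higher (22.1%) and 1517 lower (23.8%). At 6 h there were 2377 (37.3%), 1190 higher (18.7%) and 1187 lower (18.6%). Of the 61 lower by 2-fold or more at 2 h, 50 were called lower at 4 h and 34 at 6 h, and of the 6 higher, 6 and 5 were called higher. From 2 h to 4 h, 921 probes (14.4%) changed, 437 upwards (6.85%) and 484 downwards (7.59%). INO1 and CWP1 moved back: INO1 rose by 2.03 to -0.10, -0.12 and 0.68, and CWP1 rose by 1.88 to 0.26, 0.14 and -0.07. ULI1 went the other way: it fell by 3.01 to -5.33, -4.99 and -4.67, a change that was not called without array 2 or 3. The list of ER chaperones had a median of -0.07 at 0 h, -0.64 at 2 h, -1.26 at 4 h and -1.01 at 6 h, with 0, 12, 16 and 14 of 21 members lower. Of all probes, 2.10%, 5.72%, 23.8% and 18.6% were lower at these times.

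PHO84 had means of -2.69 at 2 h, -3.47 at 4 h and -1.69 at 6 h, while GIT1 had -2.04, -1.32 and -0.64. PIR3 and DDR48 read -3.89 and -3.38 at 4 h and -0.54 and -0.46 at 6 h. CTS1 had 1.02, 1.52 and 1.91 at the 3 times, and HO 1.52, 2.24 and 0.48. Daughter-cell genes had 0 members higher at 0 h, 12 at 2 h, 14 at 4 h and 11 at 6 h. SPT10, at 1.00 after 2 h, was at -0.40 after 4 h and -0.55 after 6 h.

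Several groups had more members called at 4 h than at 2 h, as did all probes (45.9% against 9.75%). Of all probes, 4.03%, 22.1% and 18.7% were higher at 2, 4 and 6 h, and 5.72%, 23.8% and 18.6% were lower. Cytosolic ribosomal proteins had a median of 0.08 at 2 h, 0.84 at 4 h and -0.51 at 6 h, with 3, 111 and 3 of 138 members higher and 0, 0 and 88 lower. General stress genes of Msn2 and Msn4 had medians of -0.39, -1.43 and 0.15, with 2, 23 and 1 of 31 members lower. Histone genes had 0 of 10 higher at 2 h and 9 at 4 h. HSP26 fell by a further 3.33 to -5.32, -5.11 and -3.70 at 4 h, the hydrophilin gene GRE1 fell by 3.29 and the carbonic anhydrase gene NCE103 fell by 2.96. The ADP/ATP carrier PET9 rose by 2.10, and the ribosomal protein genes RPL19B and RPS4A rose by 2.09 and 1.72. TSC10, an enzyme of sphingolipid synthesis, rose by 1.74, from 0.29, -2.10 and -1.56.

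From 2 h to 6 h, 1030 probes (16.2%) changed, 574 (9.00%) upwards and 456 (7.15%) downwards. The formate dehydrogenase FDH1 rose by 2.95 from -0.08, -0.09 and -0.01 to 3.04, 2.45 and 3.19. The zinc transporter ZRT1 rose by 2.67, the methylglyoxal enzymes HSP31 and GRE2 by 2.72 and 2.33, AAD14 by 2.57 and CSS1 by 2.22. GRE2 was lower in 1-copy cells at 2 h (-0.99, adjusted p = 0.0105) and higher at 6 h (1.34). PUT1, the proline oxidase, fell by 3.77 from 0.38, 0.31 and 0.40 to -3.99, -3.04 and -3.19. Oxidative stress genes had 3 of 30 lower at 2 h and 19 higher at 6 h, and proteasome genes 2 of 34 lower and 18 higher. Of all probes, 5.72% were lower at 2 h and 18.7% higher at 6 h. With each array scaled to 1 spread, the changes from 2 h to 4 h fell to 148 and those from 2 h to 6 h to 400.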

How the data were processed

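The authors deposited 1 normalised log2 ratio per probe and array, 6377 probes on 93 arrays with 0 missing. Per the submitters' processing notes, limma was used; the sources used here name neither its version nor how background was corrected and arrays normalised. A positive value was taken as Cy5 above Cy3, on a log2 scale, after the order of channels in the labels and limma's convention. Raw intensities were not analysed here, so signal over background is unknown; the number of arrays limits the precision.

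Probes were named through RefSeq locus tags: 5644 directly, 196 after writing the tag's hyphen, 537 unmatched, and 5227 had a symbol. Arrays fell into 30 groups by label. With limma 3.58.1 (R 4.3.3), all 93 arrays entered a fit of group means (67.6 degrees of freedom, 4.56 of them prior). Means were tested against 0 and times as differences of means, two-sided. Values are mean ± SD over arrays unless SE is named. The fit was tested on simulated data with independent noise on every array, which does not imitate arrays that share RNA.

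The members and the 40 gene lists were chosen with earlier results of these data known, so lists are described by counts and medians. The values of 1 member of the daughter-cell list are not reported here. Named by rule: with a symbol, past the threshold and of 1 sign on all arrays, the 15 highest and 15 lowest at 2 h; for each change, the 6 highest and 6 lowest whose groups do not overlap; up to 6 members of a list by size, or any member of the ER chaperone, phosphate, inositol, daughter-cell, marker, mating type and galactose lists. Named after their values were seen were YMR173WA, RLM1, SLT2, PIR1, SSA2, BOS1, WBP1, CLN2, TAF12, MEI4, SRP68, SSB1 and YPR197C. Same-numbered arrays of different times deviated together weakly at most (residual correlations with 2 h from -0.0518 to 0.186), so replicate numbers were not used as pairs across times. These values do not settle whether the numbers link times. At 2 h, same-numbered arrays of the 3 pairings had residual correlations from -0.0777 to 0.461. Alternatives were a dye term, array scaling, centring and weights, fewer arrays in the fit, a replicate block, a robust spread, leaving out each replicate, the inferred ratio and a 2-fold minimum.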

Additional observations from a re-analysis of the deposited data

Results flagged for a closer look

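The ratio of 1-copy to 2-copy cells differed between times for each of the following genes by a test of the difference (limma, adjusted p under 0.05), and the arrays of both times did not overlap. Values are later minus earlier mean log2 ratios.

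From 0 h to 2 h, the phosphate transporter PHO84 changed by -2.83, HSP26 by -2.32, INO1 by -2.21, ERO1 by -2.20, GIT1 by -2.10 and PIR3 by -2.03. In the other direction, HO changed by 1.87, CTR1 by 1.52, CYC1 by 1.50, AMN1 by 1.47, MRPL24 by 1.38 and AIM44 by 1.30.

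From 2 h to 4 h, HSP26 changed by -3.33, GRE1 by -3.29, ULI1 by -3.01, NCE103 by -2.96, PUT1 by -2.84 and the membrane protein gene YRO2 by -2.84. PET9 changed by 2.10, RPL19B by 2.09, INO1 by 2.03, CWP1 by 1.88, TSC10 by 1.74 and RPS4A by 1.72. With each array scaled to 1 spread, HSP26, ULI1, NCE103 and YRO2 no longer passed, at -1.36, -0.93, -1.38 and -1.83.

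From 2 h to 6 h, PUT1 changed by -3.77, ULI1 by -2.66, the methionine adenosyltransferase gene SAM1 by -2.03, VPR1 by -2.02, the glutaredoxin gene GRX6 by -2.02 and the riboflavin transporter gene MCH5 by -1.88. FDH1 changed by 2.95, HSP31 by 2.72, ZRT1 by 2.67, AAD14 by 2.57, GRE2 by 2.33 and CSS1 by 2.22. Scaled, ULI1 and MCH5 no longer passed, at -0.85 and -0.95.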

How the results depend on the processing

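The 30 named genes were chosen with 1 sign on all 3 arrays, so most alternatives could hardly turn their direction. With the dye term and the inferred ratio, which could, all 30 kept it. Calls at 2 h, 622 in number, became 204 with a dye term (54 higher, 150 lower, against 257 and 365), 1962 with array weights, 1339 with these 3 arrays alone, 1034 with the 39 time course arrays, 202 to 327 without 1 replicate, 39 for the inferred ratio, 7 for it within replicate numbers (a replicate block, chosen after seeing the data) and 67 with a 2-fold minimum. The dye term ended 6 of the 30 calls (ULI1, TIS11, FUR4, PUT4, PDH1 and IBA57), as did leaving out replicate 1 (KAR2 in place of IBA57). The inferred ratio ended 16 of them, among them KAR2, GIT1, ULI1, ERO1, DDR48, TIS11, FUR4, FAR1 and CTS1. Array scaling, centring, weights, a robust spread and both smaller sets of arrays ended none. Changes from 0 h to 2 h (247) became 415 with the dye term, 516 scaled, 700 weighted, 92 on their own arrays, 418 in the time course (190 up, 228 down) and 43 to 232 without 1 replicate. Changes from 2 h to 4 h (921) became 1466, 148, 2378 and 1941 under the first 4 of these, and 393 to 575. Changes from 2 h to 6 h (1030) became 1579 and 400 with the dye term and scaled, and 561 to 703. The 4 probes that did not close became 2 scaled, 2 to 9 without 1 replicate and 0 with the same added replicate block. ER members lower (12) became 6 with the dye term, 5 to 9 without 1 replicate and 3 inferred; phosphate (5) 2 inferred; wall (10) 4 to 9 and 3; daughter-cell (12) 7 to 11 and 4. Inferred within numbers, these 4 lists gave 3, 2, 0 and 0. Mitochondrial ribosomal members (15) became 1 with the dye term, 25 scaled, 45 weighted, 34 on their own arrays, 2 to 7 without 1 replicate and 0 inferred. Same-numbered arrays of different times deviated together weakly at most. With a replicate block over times, calls were 816 at 2 h. The changes then numbered 315, 1152 and 1239 (132 up and 183 down from 0 h to 2 h). The causes were not tested.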

Other observations

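Sulfate assimilation held a pair of large differences at 2 h. SUL1, a sulfate permease, read -2.30, -1.50 and -0.92 (-1.57 ± 0.69, adjusted p = 3.19e-07), and MET14, the kinase of adenylyl sulfate, read -1.56, -1.42 and -0.86 (-1.28 ± 0.37, adjusted p = 0.00207). They were the 2 members called among 23 genes of sulfate uptake and methionine synthesis (5.72% of all probes were lower), whose median was -0.29. The adenylyltransferase gene MET3 read -1.76, 0.07 and -0.65 and did not pass. At 4 h the list had 16 members lower and a median of -1.04, and at 6 h 17 and -0.80, against 23.8% and 18.6% of all probes lower. Iron genes had 1 of 28 lower at 2 h, TIS11, whose protein binds messenger RNAs in iron starvation (-1.88, -1.23 and -2.05), and 13 at 4 h. TIS11 read 1.41, 0.97 and 1.79 in 2-copy cells over vector. ICT1, an acyltransferase of lysophosphatidic acid, read -1.95, -1.39 and -1.42 at 2 h and -1.66, -2.04 and -2.03 at 6 h. Copper, zinc and trehalose genes had 0 of 12, 0 of 10 and 0 of 16 called at 2 h.

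Called probes with mixed signs, 24 in number, held 2 sets of like readings, chosen after the values were seen. In the first, 8 called probes of unlike function, among them MEI4, ADE4, SSB1 and SRP68, read between -1.88 and -1.33 on array 1, between 0.10 and 0.28 on array 2 and between -1.31 and -0.65 on array 3. MEI4, a meiotic gene, had 0.00 ± 0.03 at 4 h and read -0.16, -0.05 and 0.29 in 1-copy cells over vector. In the second, 7 called probes read between 0.00 and 0.29 on array 1 and between -2.59 and -0.61 on arrays 2 and 3. They include SIL1, TSC10, PDR3 and YPR197C, the last of which read 0.08, -2.59 and -2.31. TSC10 had means of 0.12 and 0.06 in 1-copy and 2-copy cells over vector, whereas SIL1 had 0.98 in 2-copy cells. What set these readings was not tested.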
